A study of Mus musculus with 6 samples.

Results

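Jun is a subunit of AP-1, a family of dimeric transcription factors that bind short DNA motifs such as TGANTCA. The 94 Jun peaks described here lie around 4 genes for non-collagen proteins of the cartilage matrix, Matn1, Matn3, Comp and Hapln1. They were chosen by position: a peak of the deposited list belonged to a gene when its midpoint fell into a fixed window of the mouse genome build mm9. The windows were chromosome 4 from 130450001 to 130560000 for Matn1, chromosome 12 from 8900001 to 9020000 for Matn3, chromosome 8 from 72850001 to 72950000 for Comp and chromosome 13 from 89620001 to 89800000 for Hapln1. They held 8, 21, 27 and 38 peaks, together 0.0948% of the 99162 peaks of the list. No height or score entered the choice.

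The Jun ChIP-seq library and its input DNA came from untreated rib chondrocytes of wild-type ICR mice at postnatal day 1. The other 4 of the 6 samples, RNA-seq libraries made before and after birth from rib chondrocytes of Col10a1mCherry transgenic Swiss Webster mice, were not analysed here. The study asked how AP-1 factors act beside Sox9, the factor that drives cartilage formation, as chondrocytes turn hypertrophic. A list of positions holds no expression level, so the label chondrocyte was not checked against marker genes. A single Jun library stands behind the list, so no value below has a replicate check. Its read depth is unknown, and a place without a peak cannot be taken as unbound.

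The products of these genes tie the collagen and the proteoglycan of cartilage together. Matrilin-1 (Matn1) and matrilin-3 (Matn3) are adaptor proteins that form filaments and link collagen fibrils to other matrix molecules. Cartilage oligomeric matrix protein (Comp), a thrombospondin, binds collagens and matrilins. Link protein (Hapln1) fastens aggrecan, the main proteoglycan of cartilage, to hyaluronan. Inherited variants of human COMP and MATN3 are known causes of multiple epiphyseal dysplasia, a disorder of the growth plate, and Comp, Hapln1 and both matrilins are widely used as markers of chondrocytes.

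The sequences under the peaks were not read, because no mm9 genome was used. The stretches directly before the transcription starts of Matn1, Matn3 and Hapln1 are printed because they were searched for the motifs of AP-1 and Sox factors. No such stretch was available for Comp, so Comp was not searched. They are the 250 bases before each start in RefSeq, plus strand, build GRCm38.p6, whose coordinates cannot be set against the mm9 peaks. They lie at chr4:130944135-130944384, chr12:8947679-8947928 and chr13:89540386-89540635.
Matn1: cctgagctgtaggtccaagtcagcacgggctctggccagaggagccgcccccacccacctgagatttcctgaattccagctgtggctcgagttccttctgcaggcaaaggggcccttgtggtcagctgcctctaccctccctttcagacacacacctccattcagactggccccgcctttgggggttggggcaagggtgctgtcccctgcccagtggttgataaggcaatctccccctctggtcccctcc
Matn3: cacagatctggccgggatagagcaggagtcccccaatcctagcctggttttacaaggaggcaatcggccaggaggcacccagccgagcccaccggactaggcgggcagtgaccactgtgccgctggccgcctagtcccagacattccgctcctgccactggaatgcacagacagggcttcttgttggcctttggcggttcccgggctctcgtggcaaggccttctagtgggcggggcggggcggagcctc
Hapln1: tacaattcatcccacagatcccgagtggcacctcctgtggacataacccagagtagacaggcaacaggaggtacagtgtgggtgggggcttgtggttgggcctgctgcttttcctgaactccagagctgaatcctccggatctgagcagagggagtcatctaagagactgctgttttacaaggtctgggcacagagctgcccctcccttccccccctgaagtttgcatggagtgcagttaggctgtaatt

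No letter is in capitals because no motif was found. The AP-1 motifs TGANTCA and TGACGTCA and the Sox motifs ACAAAG and ACAATG were searched on both strands of these stretches and of the 50 bases after each start. None of the 4 contains another. Of all 32851 RefSeq promoter stretches of 300 bases, 7.81% held TGANTCA, 1.79% TGACGTCA, 18.7% ACAAAG and 12.6% ACAATG. The absence says only that these letters are not in these stretches. Whether a Jun peak lies on one of them was not determined.

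The 4 windows differed in how many Jun peaks they held. The Comp window was the densest, with 27.0 peaks per 100 kb (exact 95% Poisson interval 17.8 to 39.3), followed by the Hapln1 window with 21.1 (14.9 to 29.0) and the Matn3 window with 17.5 (10.8 to 26.8). The Matn1 window held 7.27 per 100 kb (3.14 to 14.3). Its interval did not overlap those of Comp and Hapln1 but did overlap that of Matn3. The intervals of Matn3, Hapln1 and Comp all overlapped one another, so their order is not resolved. They cover counting error only, and peaks that come in groups make them too narrow.

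Each window was set beside all tiles of its own length laid end to end along the autosomes. Of 23995 tiles of 100 kb, 0.804% held at least the 27 peaks of the Comp window. The share was 1.30% of 13325 tiles of 180 kb for the 38 peaks of Hapln1 and 3.27% of 19994 tiles of 120 kb for the 21 peaks of Matn3. Against a mean of 4.07, 7.33 and 4.89 peaks per tile, these windows held 6.63, 5.18 and 4.30 times as many. The Matn1 window was unlike them: 21.7% of 21812 tiles of 110 kb held at least 8 peaks, and its count was 1.79 times the tile mean of 4.48. These shares describe where each count lies in the list and are no test, since the windows were laid around genes and the tiles were not. Counting peaks within 1000 bp of each other as 1 region left 7, 13, 15 and 15 regions at Matn1, Matn3, Comp and Hapln1, and the share of tiles with at least as many regions became 18.9% for Matn1, 9.58% for Hapln1, 5.04% for Matn3 and 1.52% for Comp. Counted as regions, Matn1 and Hapln1 were thus closer to each other than counted as peaks. Without peaks under 50 bp the share for Comp was 1.33%.

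**Figure D1:**
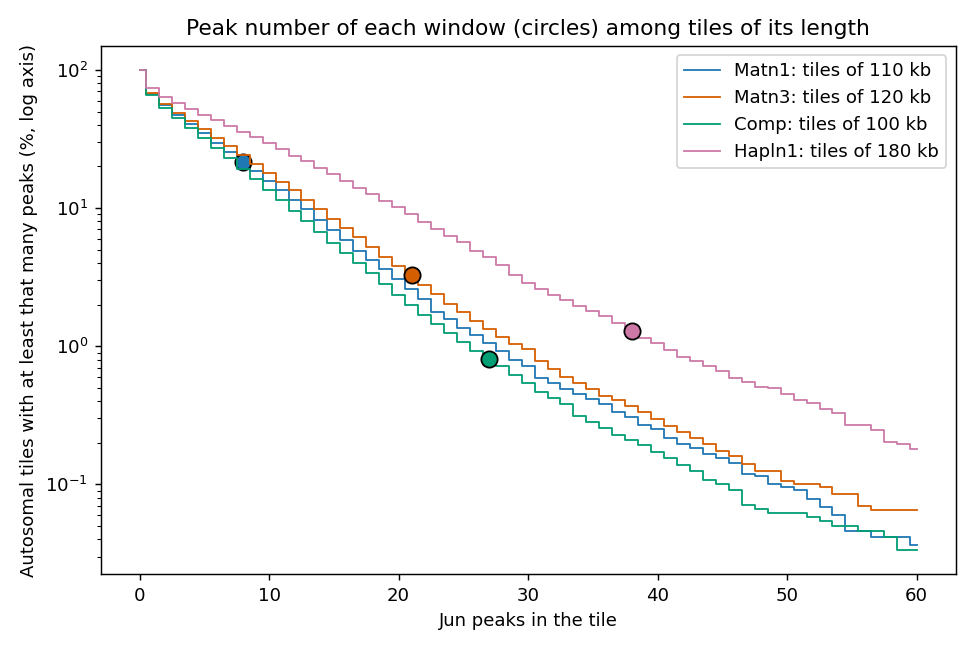
Percentage of autosomal tiles (log axis) that held at least a given number of Jun peaks, with 1 line for the tile length of each window and circles for the windows themselves. The Comp, Hapln1 and Matn3 circles sit at 0.804%, 1.30% and 3.27%, the Matn1 circle at 21.7%.

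Each window may hold more than the gene it is named for. In the RefSeq annotation of GRCm38 the nearest protein-coding neighbours are Laptm5 and Ptpru for Matn1, Laptm4a and Wdr35 for Matn3, Upf1 and Crtc1 for Comp, and Edil3 and Vcan for Hapln1. Vcan encodes versican, a chondroitin sulphate proteoglycan that also binds hyaluronan, Upf1 a helicase of nonsense-mediated RNA decay, and Crtc1 a coactivator of CREB. Peaks could not be divided between these genes, because mm9 gene positions were not used. Every count below belongs to a window, not to a transcript. Most windows were bordered by empty stretches: the nearest peak outside lay 12074 bp before and 19651 bp after the Matn1 window, 23608 and 13414 bp from that of Comp, and 12025 and 60242 bp from that of Hapln1. At Matn3 it lay 96 bp before and 17064 bp after. In the whole list the next centre was within 10 kb for only 61.3% of peaks, so breaks longer than that are common.

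At Matn1, the gene of a protein also called cartilage matrix protein, the 8 peaks were mostly far apart, with a median of 7796 bp between neighbouring centres, though 4 of them stood in 2 close pairs. The first, at 130455514 to 130455976, was 463 bp wide and the only one of 300 bp or more. A pair followed at 130461473 to 130461573 (101 bp) and 130462189 to 130462437 (249 bp). The next 33339 bp held no peak, the longest such stretch between peaks in any of the 4 windows. Single peaks then lay at 130495777 to 130495846 (70 bp) and 130516130 to 130516291 (162 bp). The last were at 130535054 to 130535166 (113 bp), 130536484 to 130536672 (189 bp) and 130544314 to 130544434 (121 bp). The peaks of the window thus gathered toward its ends, 3 on each side with 2 single peaks between, and merging those within 1000 bp of each other left 7 regions. The 110 kb before the window held 30 peaks and the 110 kb after it 2, so the Matn1 window lay between a denser and a sparser stretch.

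At Matn3 the peaks followed each other without a long break over 57.2 kb. Joined wherever neighbouring centres were at most 5 kb apart, they fell into 6 groups of 2, 5, 4, 5, 4 and 1 peaks. From the first peak (8919648 to 8920019) to the last (8976745 to 8976856), no stretch without a peak exceeded 7543 bp, the smallest such maximum of the 4 windows. Beyond the last peak the remaining 43144 bp of the window were empty. The first of these groups was formed by the 2 widest peaks, 372 bp and 479 bp (8919931 to 8920409), which shared 89 bp. The next widest measured 274 bp. It closed the fullest region, where peaks lay at 8927953 to 8928017 (65 bp), 8928366 to 8928476 (111 bp), 8928885 to 8929084 (200 bp) and 8929400 to 8929673 (274 bp). These peaks widened one after the other along the chromosome, at centre distances of 436 to 563.5 bp. After merging within 1000 bp, 13 regions remained. The peak just outside the window, of 321 bp (8899584 to 8899904), was not counted, and the flanks of 120 kb held 25 peaks before and 11 after.

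**Figure D2:**
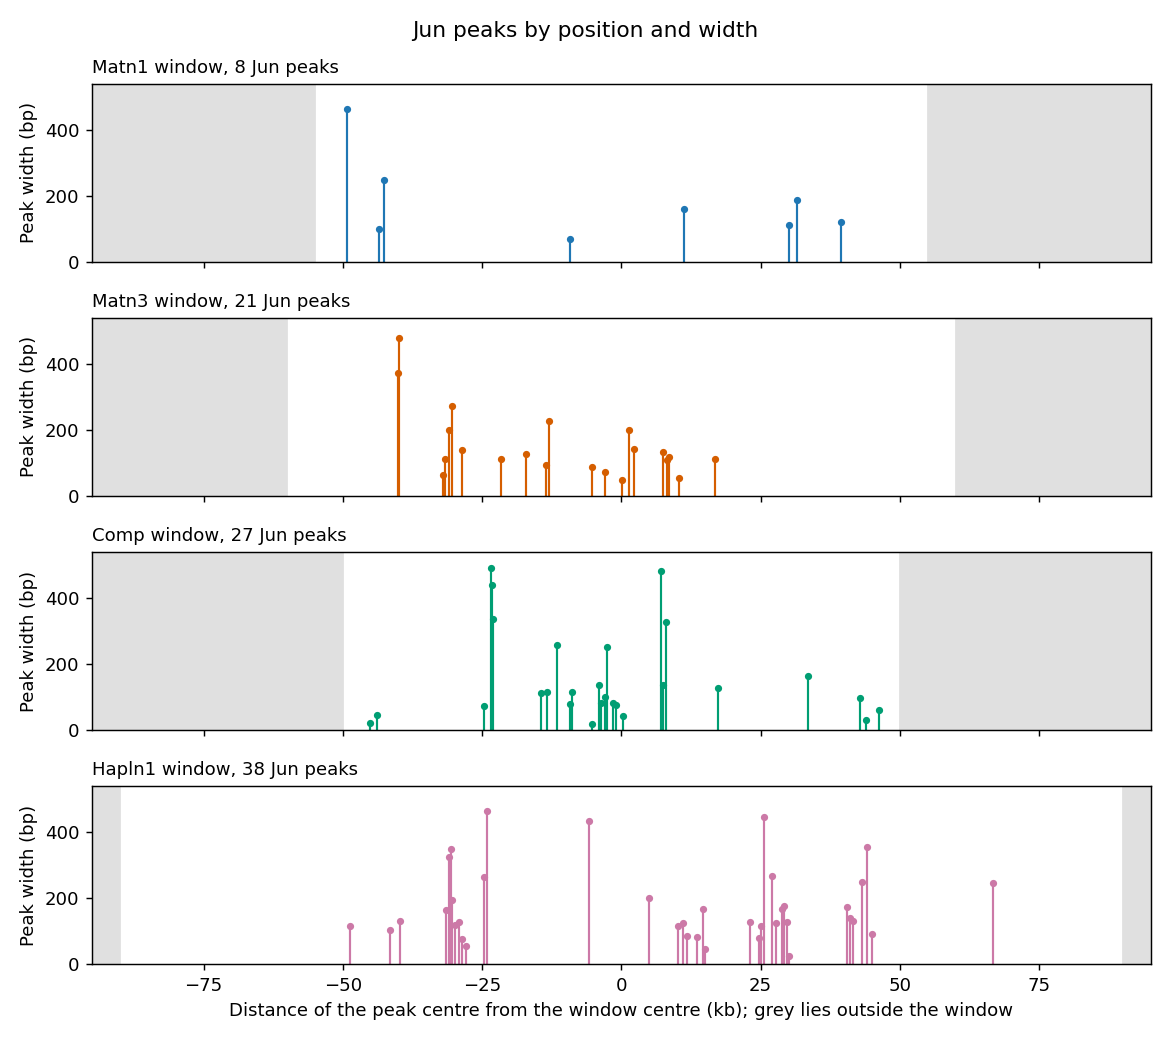
Width of each Jun peak in bp (height) against the distance of its centre from the centre of the window in kb, 1 panel per gene, with the area outside each window in grey. The 21 Matn3 peaks lie within 57.2 kb with no break over 7543 bp, the 8 Matn1 peaks are spread toward both ends, and the widest Comp and Hapln1 peaks stand in separate places.

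At Comp a dense core of peaks under 300 bp lay between 2 groups that held the wide peaks. The core, 13 peaks whose centres followed each other within 5 kb, ran from 72885533 to 72900242, and its peaks measured 20 to 257 bp. On its low-coordinate side lay a region of 4 peaks (72875295 to 72877195), where 3 wide peaks overlapped in a chain: 72876294 to 72876785 (492 bp, the widest of the 94), 72876549 to 72876987 (439 bp) and 72876858 to 72877195 (338 bp). They shared 237 bp and then 130 bp. On the other side a region of 3 peaks (72906858 to 72908217) held the second widest of the window, 72906858 to 72907340 with 483 bp, and a further one of 328 bp. All 5 Comp peaks of 300 bp or more were in these 2 flanking groups and none in the core. The 2 groups also held narrower peaks, of 72 and 138 bp. Only 7.16% of the whole list reached 300 bp, so their absence from 13 core peaks does not set the core apart in width.

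The fullest region of the Comp core held 6 peaks in 3122 bp. They lay at 72895929 to 72896065 (137 bp), 72896235 to 72896316 (82 bp), 72897005 to 72897105 (101 bp), 72897261 to 72897511 (251 bp), 72898438 to 72898518 (81 bp) and 72898976 to 72899050 (75 bp). Only 727 of the 3122 bp were covered by peaks. The outer parts of the window were thinner. Its first peak was at 72854785 to 72854805 (21 bp) and its last at 72946186 to 72946246 (61 bp), and 19133 bp without a peak separated the first 2 peaks from the rest. Peaks under 50 bp were 5 of 27 at Comp, 2 of 38 at Hapln1 and 0 at Matn1 and Matn3. Over the 94 peaks they were 7.45%, the same as in autosomal 100 kb tiles with 20 or more peaks (7.45%) and near the 6.30% of the whole list. The 100 kb before it held 7 peaks and the 100 kb after it 19, fewer than the 27 inside.

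At Hapln1 the peaks spread over 115.6 kb in groups with longer breaks than at Matn3, up to 21662 bp. Chaining centres within 5 kb gave 9 groups, of which 4 were single peaks and the others held 2, 10, 6, 10 and 6 peaks in genomic order. The first peak was at 89661309 to 89661425 (117 bp) and the last at 89776684 to 89776928 (245 bp), so that the first 41308 bp of the window were empty. The flanks of 180 kb held 15 peaks before and 9 after, against 38 inside. The peak count inside the window was thus higher than in either flank, as at Comp.

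The fullest region of the 94 peaks was in this window, 8 peaks within 3721 bp (89678370 to 89682090). Their positions were 89678370 to 89678533 (164 bp), 89678918 to 89679241 (324 bp), 89679175 to 89679522 (348 bp), 89679506 to 89679698 (193 bp), 89680067 to 89680185 (119 bp), 89680708 to 89680834 (127 bp), 89681366 to 89681441 (76 bp) and 89682036 to 89682090 (55 bp). The peaks of 324, 348 and 193 bp overlapped in a chain, by 67 and 17 bp. From the peak of 348 bp on, widths decreased along the chromosome, apart from the step from 119 to 127 bp. The 3 widest peaks of the window lay elsewhere, 463 bp at 89685676 to 89686138, 446 bp at 89735451 to 89735896 and 434 bp at 89703959 to 89704392. The last of these had no other peak within 10 kb on either side. Wide peaks at Hapln1 were therefore not bound to 1 group: the 6 of 300 bp or more were spread over 4 of the 9 groups.

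Wide peaks made up a larger share of the 94 than of the whole list. Of the 94 peaks, 14 were at least 300 bp wide, which is 14.9% (exact 95% binomial interval 8.39 to 23.7), against 7.16% of all 99162 peaks. Several of the wide peaks overlapped each other and are not independent, so this interval is too narrow. Per window they were 1 of 8 at Matn1, 2 of 21 at Matn3, 5 of 27 at Comp and 6 of 38 at Hapln1. At 200 bp or more the share was 26.6% (18.0 to 36.7) against 14.0%. Autosomal peaks from tiles of 100 kb that hold 20 or more peaks lay between, with 11.2% at 300 bp or more, inside the interval of the 94. The median width of the 94 was 126.5 bp (95% interval 115 to 140) against 114 bp, and by window it was 141.5 bp at Matn1, 119 at Matn3, 112 at Comp and 131 at Hapln1. The excess over the whole list was thus in the upper part of the widths. The lower quartile was 88 bp in both the 94 and the whole list, while the upper quartile was 200 against 151 bp. Peaks in those dense tiles also had a lower quartile of 88 bp, with an upper quartile of 172 bp. Their median of 118 bp was inside the interval of the 94. A raised upper quartile over an equal lower quartile is therefore not particular to the 94 peaks.

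Overlapping peaks were counted as well. Of the 94, 6 overlapped the peak before them, or 6.38% (2.38 to 13.4), against 1.51% of the whole list and 2.83% of peaks in the dense tiles. They were 3 at Comp, 2 at Hapln1 and 1 at Matn3, and in all 6 pairs the peak on the low-coordinate side was at least 300 bp wide. In 4 of the pairs the second peak was as well. The same shares among overlapping pairs of the whole list were not determined, so this is not shown to be particular to these windows. The interval of the 94 holds the value of the dense tiles.

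Neighbouring peaks lay close together in 3 of the 4 windows. For 86.2% of the 94 peaks (77.5 to 92.4) the next centre was within 10 kb, against 61.3% of the whole list and 90.1% of peaks in the dense tiles. Within 5 kb the shares were 70.2% (59.9 to 79.2), 47.7% and 77.9%, and within 2 kb 61.7% (51.1 to 71.5), 33.4% and 57.4%. In the Matn1 window 4 of 8 peaks were followed within 10 kb (50.0%, 15.7 to 84.3). That interval holds the value of the whole list and overlaps those of the other windows, so a difference in this share is not resolved. The median distance between neighbours, 7796 bp at Matn1, was 1753.5 bp at Matn3, 1208.25 bp at Comp and 820.5 bp at Hapln1. At all 3 distances the share among the 94 peaks was nearer to that of the dense tiles than to that of the whole list. The dense tiles were chosen by peak count, which by itself shortens spacing, so this likeness is no result apart from the counts. The Matn1 and Matn3 windows, with 7.27 and 17.5 peaks per 100 kb, were below the 20 of the dense tiles.

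The deposited rows are not in genomic order, and no source used here explains their order, so a place in the list is given as a place only. Of the 94 peaks, 36 (38.3%, 28.5 to 48.9, against 50.0% of all peaks by construction) were in the first 50% of the list, and 6 (6.38%, against 10.0%) in its first 10%. All 4 windows had fewer peaks in the first than in the last 50%, with 3 of 8 at Matn1, 8 of 21 at Matn3, 11 of 27 at Comp and 14 of 38 at Hapln1. Each window's own interval held 50.0% (8.52 to 75.5, 18.1 to 61.6, 22.4 to 61.2 and 21.8 to 54.0), so no single window is shown to lean. Peaks of the dense tiles had a share of 48.6%, just inside the interval of the 94. For the first 10% that interval was 2.38 to 13.4, which holds the 10.0% and the dense-tile value of 13.0%. A difference from the dense tiles is thus not resolved for either part. The earliest was the Matn3 peak at 8968526 to 8968644 (119 bp) in row 1014, and the next of that window was in row 12427, at 8961225 to 8961423 (199 bp). The earliest Comp peaks were in rows 2089 (72875295 to 72875366, 72 bp) and 5045 (72886584 to 72886698, 115 bp). The earliest Hapln1 peaks were in rows 2898 (89661309 to 89661425, 117 bp) and 6662 (89680067 to 89680185, 119 bp), while no Matn1 peak came before row 10158. Each of the 6 in the first 10% measured 119 bp or less.

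Peaks became wider toward the end of the list, and the wide members were examined beside that trend. The median width went from 106 bp in the first 10% of the list to 133 bp in the last 10%, and its 95th percentile from 193 to 396 bp. Of the 94 peaks, 9 (9.57%) were wider than the 95th percentile among peaks at a like place in the list, in parts of 10% each, against 4.98% of all peaks. They were 4 at Hapln1, 3 at Comp and 1 each at Matn1 and Matn3. For this share no interval or dense-tile value was computed, so a difference from the list is not resolved. In the first 50% of the list 4 of 36 members (11.1%) reached 300 bp, against 4.79% of all peaks there, and in the last 50% 10 of 58 (17.2%, 8.59 to 29.4) against 9.53%. The share of wide peaks among the 94 was above that of the list in both parts, although in each the list's value was within the interval of the members. Peaks in the dense tiles had 6.84% in the first and 15.4% in the last 50%, also within those intervals.

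**Figure D3:**
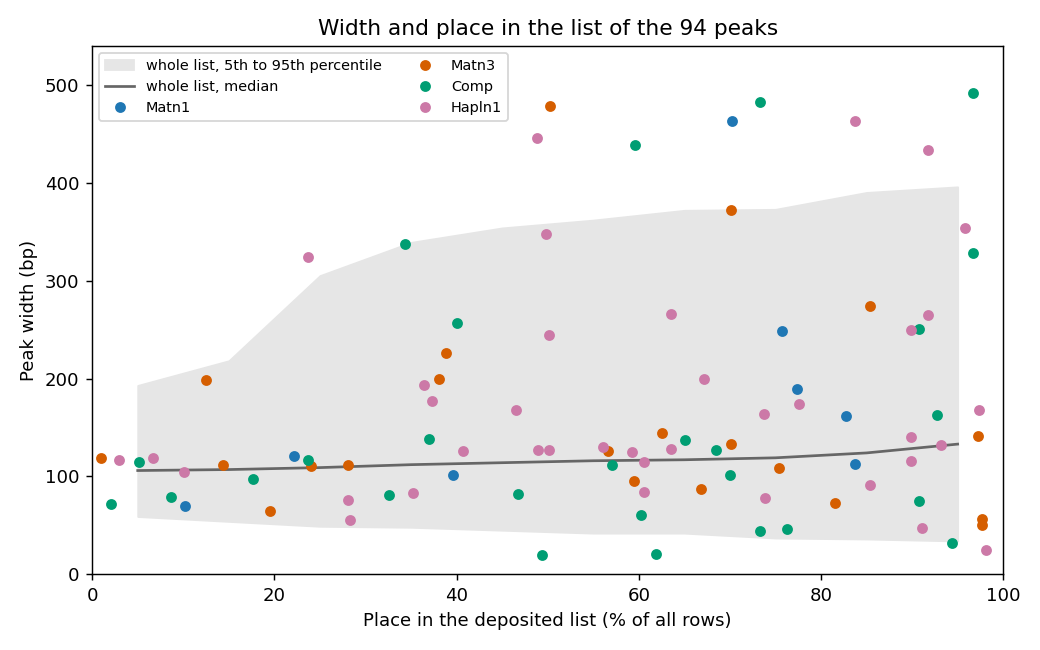
Width of each of the 94 Jun peaks in bp against its place in the deposited list, coloured by window, over the median (line) and the 5th to 95th percentile (grey) of the whole list in parts of 10%. The widest peaks of Comp, Hapln1, Matn1 and Matn3 stand above the grey band, and none of the first 6 members does.

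Some peaks stood beside a peak of the same stretch of chromosome in the list. A peak was counted when 1 of the 2 rows before it or the 2 rows after it held a peak of the same chromosome with its centre within 100 kb. This held for 19 of the 94 peaks, or 20.2% (12.6 to 29.8), against 3.97% of the whole list and 6.74% of the peaks in the dense tiles. The 19 were 4 at Matn3, 7 at Comp and 8 at Hapln1, with none of the 8 at Matn1 (0 to 36.9, which holds the 3.97%). All 19 were in the last 50% of the list, as were 3183 of the 3933 such peaks of the whole list. In the first 50% it held for 0 of 36 members (0 to 9.74), against 1.51% of all peaks and 2.10% in the dense tiles. Both values are inside that interval. For 18 of the 19 the other peak was in the same window, in 9 pairs, and for 1 Comp peak it lay outside. In the last 50% of the list the share was 32.8% of 58 members (21.0 to 46.3), against 6.42% of all peaks and 11.1% of the peaks in the dense tiles. Members of a pair were counted on both sides, so the intervals are too narrow. The measure was chosen after the rows of these windows had been seen, and what sets the order of the rows was not tested.

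**Figure D4:**
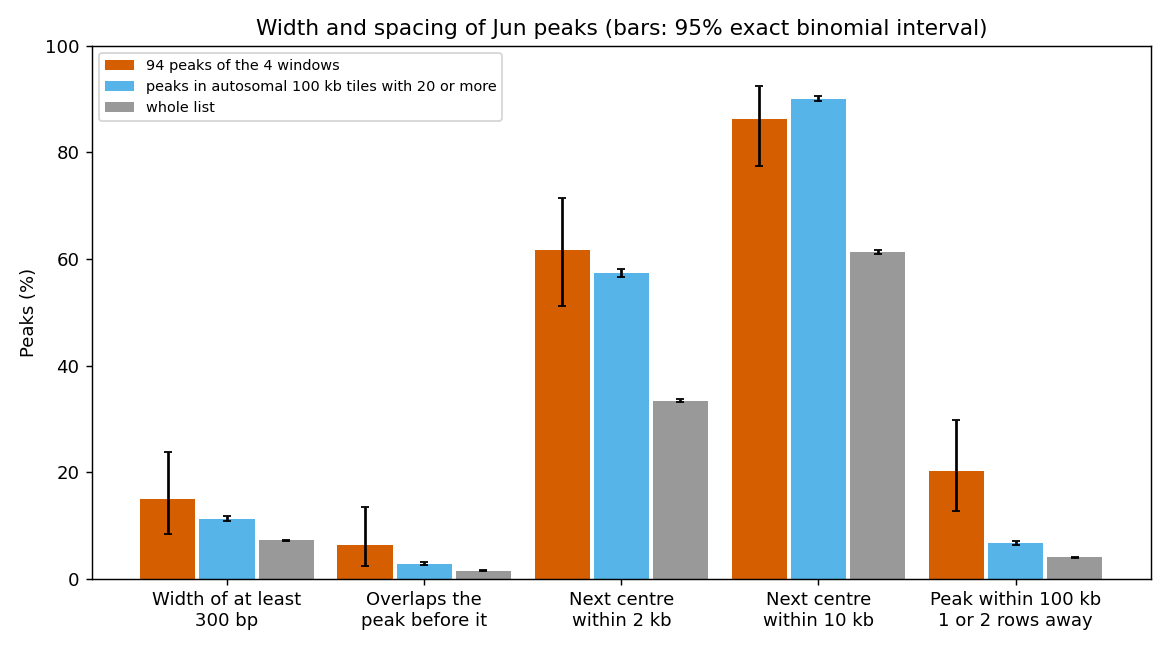
Percentage of peaks with each property of width, overlap, spacing and list order in the 94 peaks, in autosomal 100 kb tiles with 20 or more peaks and in the whole list, with exact 95% binomial intervals as bars. For the first 4 properties the value of the dense tiles lies within the interval of the 94 peaks, and for list order it does not (6.74% against 20.2%).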

How the data were processed

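Jun ChIP-seq peaks were analysed as the authors deposited them: chromosome, start and end on mm9, the build per the submitters' processing notes, with no header, score, summit or strand. The list's name marks it as FDR peaks, and no label or header says which level that means. The aligner, peak caller and use of the input are not stated in these sources. The list was taken as that of the 1 Jun library, the only Jun ChIP sample. Starts were read as counted from 0 and are printed counted from 1. Width is end minus start, and position is the middle of the interval. Tiles ran end to end from the first to the last peak centre of each of 19 autosomes.

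The 4 genes and windows were chosen with earlier results of these data known. Peaks are given in full by a fixed rule: all of a window with 12 or fewer, otherwise the first and last, the 3 widest, the earliest 2 in the list and the fullest region after merging gaps of up to 1000 bp. Peaks of 1 library are not replicates, so no test was made. Poisson and binomial intervals are exact, that of a median comes from order statistics, and all cover counting error only. Alternatives changed the window edges, merging, minimum width, tiles, distances and part of the list. The counting of tiles and regions was tested on simulated data. Python 3.11.15, pandas 2.3.3, numpy 2.4.6, scipy 1.17.1 and matplotlib 3.10.9 were used.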

Additional observations from a re-analysis of the deposited data

How the results depend on the processing

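Of 72 alternatives, 42 left a count within 1.5 times its value or another result within its 95% interval, and 30 moved it. No paired analysis was possible because no result comes from a test and the Jun library has no replicate. Peak counts were stable to the window edges: widening or narrowing each window by 10 kb, or counting any overlap, gave 7 to 8 peaks at Matn1, 21 to 23 at Matn3, 22 to 27 at Comp and 38 at Hapln1. Merging within 1000 bp left 13 regions at Matn3, 15 at Comp and 15 at Hapln1. The first and last 50% of the list held 3 and 5 peaks at Matn1, 8 and 13 at Matn3, 11 and 16 at Comp, and 14 and 24 at Hapln1; fewer peaks enter each by construction. In the order Matn1, Matn3, Comp and Hapln1, the percentage of tiles with at least as many peaks was 32.4, 4.80, 1.23 and 1.76 over tiles with at least 1 peak, and 18.9, 5.04, 1.52 and 9.58 with merged peaks. With tiles of the same chromosome it was 22.5 at Matn1, 2.44 at Matn3 and 1.08 at Hapln1, and with peaks of at least 50 bp 20.2 at Matn1, 2.64 at Matn3 and 1.33 at Comp. The median width was 176 bp after merging (whole list 126 bp) and 116 to 128 bp with each window left out. The share with the next centre near was 61.7% within 2 kb, 70.2% within 5 kb and 72.0% after merging (whole list 47.6%), and 83.6% to 89.5% with each window left out. The share of wide peaks was 26.6% at 200 bp or more, 8.51% at 400 bp or more (whole list 3.10%) and 13.4% to 16.4% with each window left out at 300 bp. That of peaks with a neighbour in the list was 17.9% to 22.1% with each window left out. The alternatives for wide peaks and list neighbours were chosen after seeing the data. Apart from those that change the set of peaks or tiles by construction, the cause was not tested.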

Other observations

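Of the 9 pairs of peaks from a single window that stood within 2 rows of each other, 1 was a pair of neighbours on the chromosome, and the other 8 had at least 1 peak between them. At Comp, rows 95835 and 95836 held the peak of 492 bp at 72876294 to 72876785 and that of 328 bp at 72907890 to 72908217, whose centres are 31514 bp apart and which lie on opposite sides of the dense core. The neighbours were in rows 72671 and 72672, which held the peaks at 72906858 to 72907340 and 72900199 to 72900242, with centres 6878.5 bp apart. Rows 89962 and 89963 held those at 72898976 to 72899050 and 72897261 to 72897511, with centres 1627 bp apart. At Matn3, rows 69496 and 69498 held the peaks at 8919648 to 8920019 and 8967466 to 8967598, 47698.5 bp apart, the widest separation of the 9 pairs. Rows 96827 and 96828 held those at 8960057 to 8960106 and 8970272 to 8970327, 10218 bp apart. The 4 pairs at Hapln1 were 1726.5 to 18750.5 bp apart. None of the 6 overlapping pairs stood within 2 rows of each other in the list. How overlapping peaks, or pairs within 2 rows, of the whole list compare was not determined. These observations are therefore not shown to be particular to these windows. The chain of 3 overlapping Comp peaks stood in rows 95835, 59071 and 34010, and that at Hapln1 in rows 23511, 49449 and 36118.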
